A study of Rattus norvegicus with 8 samples.

Results

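The antioxidant, glutathione and NRF2 target genes were followed in primary cultures of rat semicircular canal duct (SCCD) epithelium with and without dexamethasone, a synthetic glucocorticoid. The list held 43 genes, written from their known roles and found in the table by gene symbol. It was chosen with earlier results of these data known, so that counts over it are descriptions. A probe set of their own was present for 40 of them, out of 10412 genes and 15866 probe sets on the array. Prdx1, Fth1 and Ftl1 were matched only by probe sets that the annotation gives to several genes, and no value was taken for them. Of the 40 genes, 36 averaged a signal of 100 or more across the 8 arrays and were tested, and Gsr, Gsta3, Gstm1 and Gstt1 were below this limit. Where a gene had several probe sets, which was so for 4 genes, the strongest was used.

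The cultures came from the semicircular canals of neonatal Wistar rats and were grown on permeable supports. The control group (n = 4) was untreated and the dexamethasone group (n = 4) received 100 nM of the steroid, and 1 Affymetrix rat array per sample was used here. The paper lists A and B chips, the sample titles here end in A, and no values of B chips were used. Neither group carried a transgene or deletion. The time of exposure and whether the samples came from separate dissections are not given in the sources used here, so that the p-values measure only the spread between these samples. Each probe set had 1 signal per array, an intensity in arbitrary units. As deposited, the trimmed mean of an array (2% left out at either end) stood at 500.1 for replicates 1 and 2 in both groups and at 202 to 336 for replicates 3 and 4, and every array was rescaled to 500. These 2 array sets are also given separately below, since several genes differed between them. For beta-actin, the ratio of the 3′ to the 5′ signal, which rises with degraded or incompletely copied RNA, was 8.10 to 13.7 in control and 6.17 to 8.07 with dexamethasone, without overlap. A fit with this ratio as a covariate is given where it bears on a result. As the ratio differed between the groups without overlap, that fit cannot fully separate RNA quality from treatment. The Gapdh ratio ran from 2.10 to 3.79 on the control arrays and from 2.14 to 3.18 on the others, with overlap.

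NRF2 (Nfe2l2) is the transcription factor that directs much of the antioxidant response. Its partner KEAP1, an adaptor of a ubiquitin ligase, marks it for degradation until oxidants or electrophiles modify cysteines of KEAP1. NRF2 then accumulates, joins a small MAF protein and binds antioxidant response elements upstream of the genes that make and use glutathione and thioredoxin. Glutathione serves peroxidases, which reduce peroxides, transferases, which conjugate foreign compounds, and glutaredoxin, which removes glutathione from protein cysteines. Thioredoxin and the peroxiredoxins form a parallel route. In the inner ear these systems are known for protection against noise and ototoxic drugs, and glucocorticoids are used there as treatment.

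With dexamethasone, 4 of the 36 tested genes passed the test. Glutaredoxin (Glrx) rose 5.91-fold, glutathione peroxidase 2 (Gpx2) 1.3-fold and glutathione transferase pi (Gstp1) 1.33-fold (limma, Benjamini-Hochberg adjusted p under 0.05 over all probe sets tested). The fourth was the growth inhibitor Osgin1, with signals of 102 to 319.6 in control and 24.5 to 59.5 with dexamethasone. It was tested only because of its control signals and was near background with dexamethasone, so that the size of its fall is not known and its call was lost with a floor of 100 on the signals. Nfe2l2 and Keap1, and the NRF2 targets Hmox1, Nqo1, Gclc and Gclm, did not pass. Over all 10368 probe sets tested, 279 passed, which is 2.69%, with 1.88% higher and 0.81% lower. The median log2 fold change of the 36 genes was -0.0041, against -0.023 over all probe sets tested, and 18 genes had a positive and 18 a negative value. The middle range of the genes, from the 25th to the 75th percentile, was -0.18 to 0.20 on the log2 scale, and that of all probe sets was -0.17 to 0.14.

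The promoters of the 4 genes that passed are shown because NRF2, AP-1 and the glucocorticoid receptor can act through short elements there. The letters were taken from the RefSeq table for the GRCr8 assembly, which covers 250 bases before to 50 bases after each gene's start, 5′ to 3′ on the strand of the gene. Capitals mark the core of the antioxidant response element (TGACNNNGC) or the AP-1 site (TGAGTCA), each searched on both strands.
Gstp1 (chr1:210769656-210769955, minus strand): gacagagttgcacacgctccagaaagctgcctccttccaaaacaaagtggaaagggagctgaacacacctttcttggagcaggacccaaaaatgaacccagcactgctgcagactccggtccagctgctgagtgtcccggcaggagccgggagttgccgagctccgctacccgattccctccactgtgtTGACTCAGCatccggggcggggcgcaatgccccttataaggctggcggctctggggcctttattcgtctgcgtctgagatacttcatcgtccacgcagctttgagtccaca
Glrx (chr2:7073545-7073844, plus strand): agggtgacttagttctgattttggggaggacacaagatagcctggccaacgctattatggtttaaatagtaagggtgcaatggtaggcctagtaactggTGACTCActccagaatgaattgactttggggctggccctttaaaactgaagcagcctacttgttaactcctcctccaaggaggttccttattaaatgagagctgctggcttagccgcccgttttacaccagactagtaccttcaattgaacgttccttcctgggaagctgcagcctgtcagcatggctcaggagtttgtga
Gpx2 (chr6:101229984-101230283, minus strand): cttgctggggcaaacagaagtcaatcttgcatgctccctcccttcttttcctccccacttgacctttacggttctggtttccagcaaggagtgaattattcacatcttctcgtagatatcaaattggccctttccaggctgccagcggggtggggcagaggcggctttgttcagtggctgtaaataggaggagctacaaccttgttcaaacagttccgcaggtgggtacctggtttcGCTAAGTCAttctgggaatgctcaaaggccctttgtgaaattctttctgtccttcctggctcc
Osgin1 (chr19:64393651-64393950, plus strand): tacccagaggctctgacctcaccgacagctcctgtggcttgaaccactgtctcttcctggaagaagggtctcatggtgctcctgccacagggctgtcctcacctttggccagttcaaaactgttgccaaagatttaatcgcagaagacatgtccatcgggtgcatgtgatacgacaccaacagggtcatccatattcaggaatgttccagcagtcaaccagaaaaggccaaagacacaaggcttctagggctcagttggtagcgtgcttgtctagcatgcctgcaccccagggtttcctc
The Gstp1 window held TGACTCAGC from 61 to 53 bases before the start, in which the response element core and an AP-1 site overlap. The Glrx window held the AP-1 site TGACTCA from 151 to 145 bases before the start, and the Gpx2 window held the response element core read on the opposite strand, GCTAAGTCA, from 13 to 5 bases before the start. Neither motif occurred in the Osgin1 window.

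Among the listed genes, 35 had a promoter in the table, with 40 windows in all, since some genes have several starts. Hmox1, Gsr, Gstt1, Gstt2, Prdx6, Sod3, Fth1 and Ftl1 had no entry. The response element core was present in 12 of the 40 windows (30.0%), against 12.1% of all 33469 windows of the same length. The AP-1 site was present in 6 of 40 (15.0%) against 4.63%. The 2 motifs can share bases. Beside Gpx2 and Gstp1, the core occurred in Ephx1, Gclm, Gsta3, Gstm5, Nfe2l2, Prdx1, Prdx4, Prdx5, Sod2 and Txnrd1, and none of those with a tested probe set passed the test. The hexamer TGTTCT of the glucocorticoid response element was present in 7 of 40 windows (17.5%) against 20.7% of all windows, and in none of the 4 genes that passed. The full palindrome of that element was in 0 of 40, against 0.0149%. A match is a match of letters and does not show that a factor binds. Elements outside these windows were not searched, so that a window without a match does not show that a gene lacks one.

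**Figure D1:**
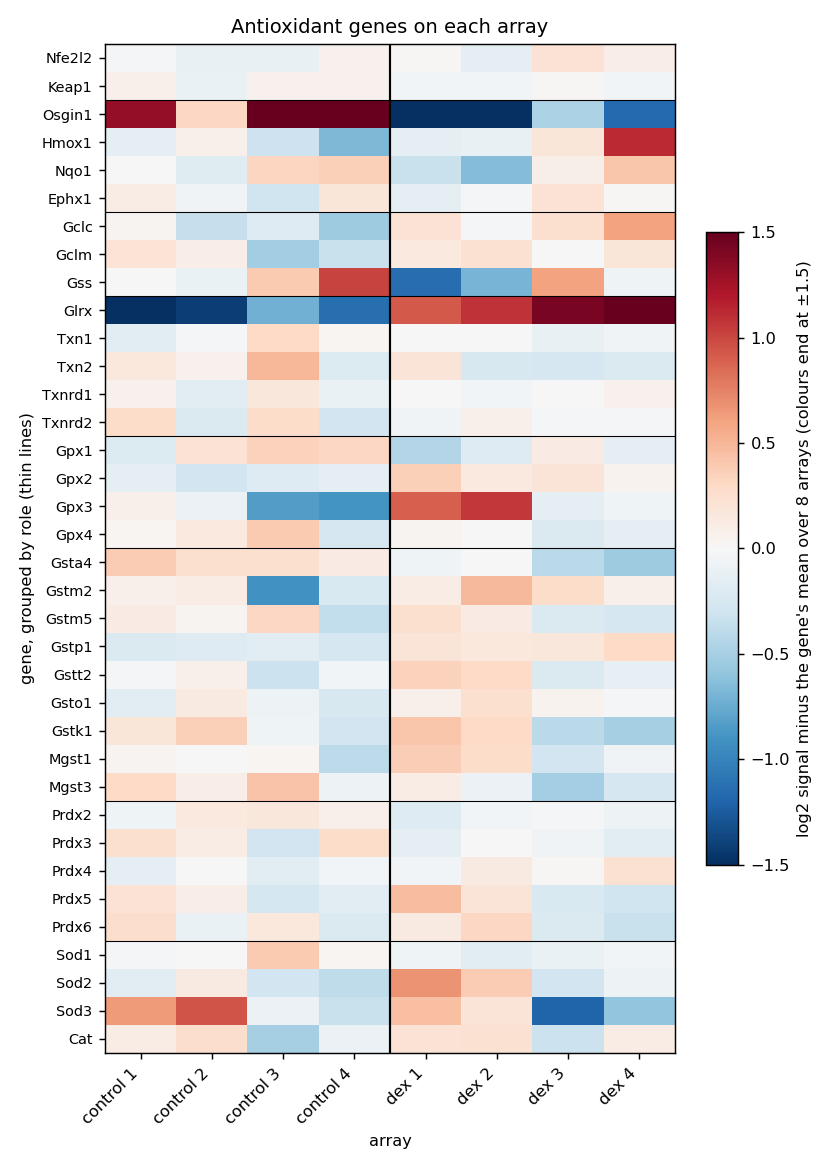
Log2 signal of each of the 36 tested genes (rows, in groups by role) on each of the 8 arrays (columns, 4 control and 4 dexamethasone), as the difference from the gene's own mean, with red above and blue below it. Glrx turned from blue to red and Osgin1 from red to blue between the groups, while Gpx3, Sod3 and Gss also differed between replicates 1 and 2 and replicates 3 and 4.

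Glutaredoxin (Glrx), the small oxidoreductase that uses glutathione to release protein thiols from mixed disulfides, had the largest rise among the 36 tested genes. Its signal was 152, 205, 331 and 249 on the 4 control arrays and 1037, 1162, 1470.4 and 1769.5 on the 4 dexamethasone arrays. Every dexamethasone array was above every control array. The log2 fold change was 2.56 (95% interval 2.06 to 3.07, SE 0.23, limma adjusted p = 7.50e-05), a rise of 5.91-fold (two-sided p = 0.0286 by an exact permutation test, the lowest value that 4 against 4 arrays can give). A second probe set of Glrx, with signals of 80.1 to 136 in control and 318 to 449.6 with dexamethasone, gave 1.83 (95% interval 1.41 to 2.25, SE 0.19, limma adjusted p = 3.01e-04).

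Within replicates 1 and 2 the log2 fold change of Glrx was 2.64 (limma adjusted p = 5.75e-05), and within replicates 3 and 4 it was 2.49 (limma adjusted p = 0.0167). With the beta-actin ratio as a covariate it was 2.89 (limma adjusted p = 0.00116), and no other of the 36 genes passed in that fit, where 0.627% of all probe sets did. Against genes of other tissues, taken as silent here (74 probe sets of 64 genes), Glrx was above their 95th percentile, 221 to 378 over the arrays, on all 4 dexamethasone arrays and on 1 of 4 control arrays. The 5 probe sets of Myh1 averaged 244 to 612 and bear on that percentile, and whether Myh1 was silent here was not tested. With each control signal raised to that percentile of its own array where it was lower, the rise was at least 4.04-fold.

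Osgin1, an NRF2-induced growth inhibitor named for its induction by oxidative stress, had the largest fall. Its signal was 206, 102, 319.6 and 236 on the control arrays and 25.3, 24.5, 59.5 and 36.6 on the dexamethasone arrays. The 2 groups did not overlap, and the dexamethasone arrays lay near or below the median of the silent genes, which was 31.4 to 60.3 over the 8 arrays. The fitted log2 difference was -2.55 (95% interval -3.41 to -1.69, SE 0.39, limma adjusted p = 0.00431), which is no measure of the size, since the dexamethasone group was not above background and the gene entered the test through its control group. The fitted value was -2.54 within replicates 1 and 2 (limma adjusted p = 0.0374) and -2.56 within replicates 3 and 4 (limma adjusted p = 0.0616).

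With the 95th percentile of the silent genes as the limit, no lower bound on the Osgin1 difference could be given. Its signal was above the 95th percentile of the silent genes on 1 of 4 control arrays and on 0 dexamethasone arrays. With every signal below 100 raised to 100, the log2 fold change was -0.996 (limma adjusted p = 0.0852), without the filter the fitted difference was the same and its limma adjusted p was 0.0648, and with the beta-actin ratio as a covariate the value was -1.85 (limma adjusted p = 0.185).

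Neither regulator of the pathway passed the test. Nfe2l2 (NRF2) had signals of 2795, 2638, 2642 and 2969 in control and 2892, 2567, 3309.8 and 3058 with dexamethasone. The groups overlapped, and the log2 fold change was 0.095 (95% interval -0.12 to 0.31, SE 0.099, limma adjusted p = 0.698). Keap1 had signals of 457, 404, 451 and 450.2 in control and 419.8, 421, 437 and 419 with dexamethasone, and its value was -0.053 (95% interval -0.29 to 0.19, SE 0.11, limma adjusted p = 0.864). For both genes the confidence interval lay within 1.3-fold in either direction. Another Keap1 probe set was below the filter on low signals, at 9.60 to 42.8 over the 8 arrays. An array measures the transcript, while the control of NRF2 by KEAP1 acts on the protein.

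Hmox1, Nqo1 and Ephx1, which NRF2 induces, did not pass the test. Hmox1, heme oxygenase, which degrades heme, had signals of 374, 439, 336 and 260.2 in control and 377, 383, 469 and 903 with dexamethasone. Replicate 4 of the dexamethasone group was the highest of all and the other 7 arrays overlapped. Its log2 fold change was 0.52 (95% interval -0.049 to 1.10, SE 0.26, limma adjusted p = 0.359), with -0.092 within replicates 1 and 2 and 1.14 within replicates 3 and 4. Nqo1, a quinone reductase much used as a readout of NRF2, had signals of 1431, 1264, 1806 and 1840.5 in control and 1142, 917, 1525 and 1920.5 with dexamethasone. The groups overlapped, and the value was -0.24 (95% interval -0.70 to 0.22, SE 0.21, limma adjusted p = 0.629). Ephx1, microsomal epoxide hydrolase, had signals of 369.6 to 529 over the 8 arrays and differed by 0.033 on the log2 scale (limma adjusted p = 0.938).

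Of the genes of glutathione synthesis, none passed the test. Gclc, the catalytic subunit of glutamate-cysteine ligase, the rate-limiting enzyme, had signals of 266, 203, 228 and 179 in control and 302, 255, 307 and 395 with dexamethasone. On 3 of 4 dexamethasone arrays it was above every control array. Its log2 fold change was 0.52 (95% interval 0.14 to 0.91, SE 0.18, limma adjusted p = 0.162), and it was 0.26 and 0.79 within the 2 array sets. The other probe set of Gclc, below the filter, had signals of 21.0 to 48.3 in control and 43.1 to 148 with dexamethasone. Gclm, the modifier subunit of the same ligase, had signals of 294, 272, 177 and 202 in control and 282, 297, 252 and 288 with dexamethasone. The groups overlapped and the value was 0.27 (95% interval -0.12 to 0.66, SE 0.18, limma adjusted p = 0.506), which turned to -0.089 with the beta-actin ratio as a covariate. The Gclc signal was above the 95th percentile of the silent genes on 2 of the 8 arrays and that of Gclm on 1, and neither was above it on any control array. The size of any change in these 2 genes is therefore not known.

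Gss, glutathione synthetase, which completes the molecule, had signals of 642, 601, 845 and 1297 in control and 293, 398, 982 and 615 with dexamethasone. The groups overlapped, and the log2 fold change was -0.65 (95% interval -1.39 to 0.096, SE 0.34, limma adjusted p = 0.389). Within replicates 1 and 2 alone it was -0.86 (limma adjusted p = 0.0256) and within replicates 3 and 4 alone -0.43 (limma adjusted p = 0.572). Gsr, glutathione reductase, which restores glutathione from its disulfide, was below the filter, with signals of 16.4 to 90.2, and on no array was it above the 95th percentile of the silent genes.

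**Figure D2:**
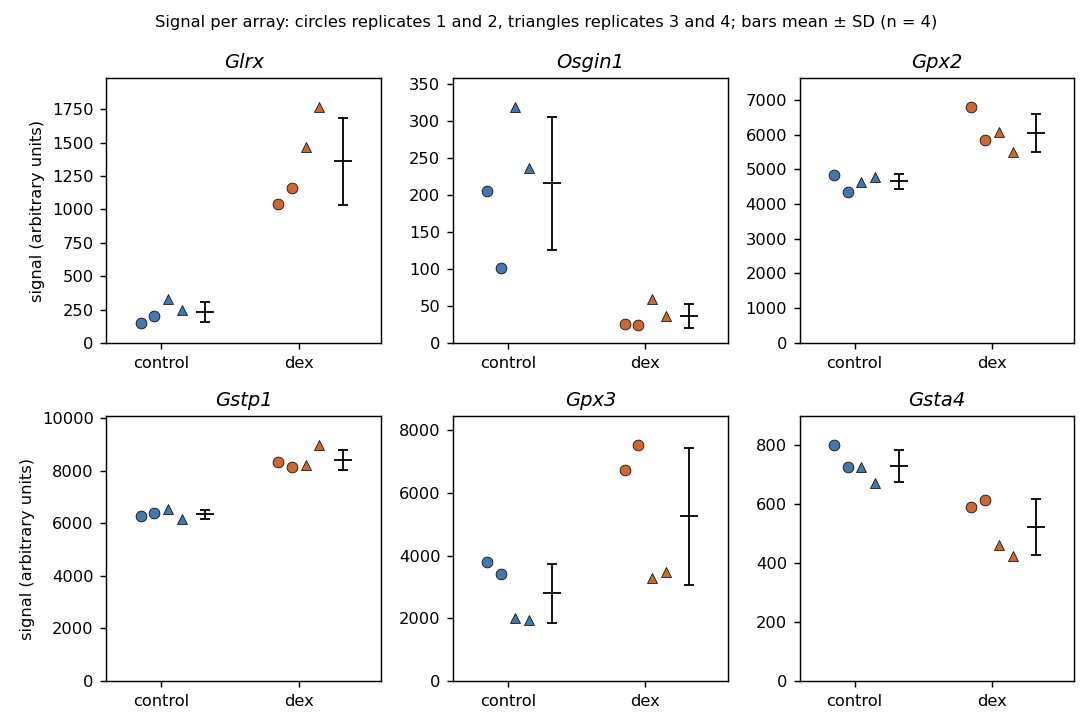
Signal in arbitrary units (y axis, starting at 0) of Glrx, Osgin1, Gpx2, Gstp1, Gpx3 and Gsta4 on each control (blue) and dexamethasone (orange) array, with circles for replicates 1 and 2 and triangles for replicates 3 and 4, and the mean ± SD (n = 4) beside the points. The groups were apart in 5 of the genes, whereas in Gpx3 the triangles of the dexamethasone group lay among the circles of the control group.

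Of the 4 glutathione peroxidases, which reduce peroxides at the expense of glutathione, 1 passed the test. Gpx2, the peroxidase of gastrointestinal and other epithelia, had signals of 4826, 4344, 4642 and 4778 in control and 6799, 5849.6, 6067 and 5505 with dexamethasone. All 4 dexamethasone arrays were above all 4 control arrays. The rise was 1.3-fold, which is 0.38 (95% interval 0.19 to 0.57, SE 0.085, limma adjusted p = 0.0376) on the log2 scale, and it was 0.46 within replicates 1 and 2 (limma adjusted p = 0.0284) and 0.30 within replicates 3 and 4 (limma adjusted p = 0.434). Gpx2 no longer passed when any 1 of control replicates 1, 2 and 4 or dexamethasone replicates 1, 2 and 3 was left out, with adjusted p values up to 0.118 (limma), nor with the beta-actin ratio as a covariate, where its log2 fold change was 0.45 (limma adjusted p = 0.144). It also did not pass without the filter on low signals (limma adjusted p = 0.0908) or in a fit without the variance trend (limma adjusted p = 0.134).

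Gpx3, the secreted peroxidase of plasma, had signals of 3799.6, 3397, 2021 and 1943 in control and 6718, 7538, 3279 and 3464 with dexamethasone. Replicates 1 and 2 were higher than replicates 3 and 4 in both groups, and within each of these array sets the dexamethasone arrays were the higher ones. The log2 fold change was 0.88 (95% interval 0.23 to 1.52, SE 0.30, limma adjusted p = 0.163) over the 8 arrays. With array set as a block, the same value had a confidence interval of 0.70 to 1.06 and passed (limma adjusted p = 1.61e-04). It was 0.99 within replicates 1 and 2 (limma adjusted p = 4.19e-04) and 0.77 within replicates 3 and 4 (limma adjusted p = 0.105), and 0.50 with the beta-actin ratio as a covariate (limma adjusted p = 0.772).

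Gpx1, the main cytosolic peroxidase, had signals of 1286, 1733, 1884 and 1839 in control and 1094, 1303, 1614 and 1345 with dexamethasone. The groups overlapped. The value was -0.33 (95% interval -0.66 to -0.0027, SE 0.15, limma adjusted p = 0.304), and the array sets gave -0.32 and -0.34. Gpx4, which reduces lipid hydroperoxides in membranes, had signals of 2316 to 3615 and differed by -0.16 on the log2 scale (limma adjusted p = 0.607).

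Of the 12 glutathione transferases, which couple glutathione to electrophiles, 9 were tested and 1 passed. Gstp1, the pi class enzyme, had signals of 6269, 6402, 6553 and 6156 in control and 8332, 8139, 8227 and 8989 with dexamethasone. The lowest dexamethasone array was well above the highest control array, and both groups were tight. The rise was 1.33-fold, which is 0.41 (95% interval 0.26 to 0.56, SE 0.069, limma adjusted p = 0.00777) on the log2 scale. It was 0.38 within replicates 1 and 2 (limma adjusted p = 0.0153) and 0.44 within replicates 3 and 4 (limma adjusted p = 0.251). Gstp1 passed whichever 1 array was left out, with adjusted p values of 0.00537 to 0.0329 (limma), and had the same size, 0.41, with the beta-actin ratio as a covariate, where it did not pass (limma adjusted p = 0.0833). In a fit without the variance trend Gstp1 did not pass either (limma adjusted p = 0.0736). Near-identical transferases can share probes, and the annotation names Gstp1 alone for this probe set.

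Gsta4, the alpha class enzyme that conjugates 4-hydroxynonenal, a product of lipid peroxidation, had signals of 799, 724, 723 and 668 in control and 587, 614, 461 and 423 with dexamethasone. The groups did not overlap. Its log2 fold change was -0.50 (95% interval -0.81 to -0.19, SE 0.14, limma adjusted p = 0.0952), short of the threshold, while with array set as a block it passed (limma adjusted p = 0.0250). Within the array sets it was -0.34 (limma adjusted p = 0.212) and -0.65 (limma adjusted p = 0.248), and with the beta-actin ratio it was -0.49 (limma adjusted p = 0.472).

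Gstm2, a mu class enzyme, had signals of 1011, 1043, 512 and 821 in control and 1040.5, 1348, 1162 and 1016 with dexamethasone. Control replicate 3 was the lowest array. The log2 fold change was 0.48 (95% interval 0.030 to 0.92, SE 0.20, limma adjusted p = 0.278), and with the beta-actin ratio as a covariate it was -0.011. Mgst3, a microsomal transferase with peroxidase activity, had signals of 1364, 1182, 1484 and 1048 in control and 1192, 1042, 781 and 933 with dexamethasone. The groups overlapped, with 3 of 4 dexamethasone arrays below every control array, and the value was -0.37 (95% interval -0.70 to -0.036, SE 0.15, limma adjusted p = 0.260). The remaining 5 tested transferases, Gstm5, Gstt2, Gsto1, Gstk1 and Mgst1, had log2 fold changes of -0.094 (Gstk1) to 0.17 (Gsto1), and none had an unadjusted p under 0.05. Their signals over the 8 arrays were 407 to 653 for Gstm5, 144 to 228 for Gstt2, 688 to 958 for Gsto1, 101 to 190.2 for Gstk1 and 2940.0 to 5002 for Mgst1. The 95th percentile of the silent genes was 221 to 378, so that Gstk1 was below it on every array and Gstt2 was near or below it. For these genes the lack of a call does not show an unchanged transcript. Gsta3, Gstm1 and Gstt1, below the filter, had signals of 29.0 to 92.8, 8.04 to 53.4 and 5.28 to 22.0, and none of them exceeded the 95th percentile of the silent genes on any array.

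The thioredoxin system, which carries electrons from NADPH to protein disulfides and peroxiredoxins, did not pass the test in any of its 4 genes. Cytosolic thioredoxin (Txn1) had signals of 7548 to 10409 in control and 7836 to 8500.0 with dexamethasone, and mitochondrial thioredoxin (Txn2) had 1329 to 2161 and 1287 to 1745. Both pairs of groups overlapped. Their log2 fold changes were -0.077 (confidence interval -0.28 to 0.13) and -0.26 (confidence interval -0.60 to 0.078). The reductases Txnrd1 and Txnrd2 had 0.012 (confidence interval -0.24 to 0.26) and -0.020 (confidence interval -0.37 to 0.34). The Txn1, Txnrd1 and Txnrd2 intervals lay within 1.3-fold in either direction. Txnrd2, however, had signals of 222 to 329 and was above the 95th percentile of the silent genes on only 2 of the 8 arrays. Its interval is therefore no firm limit on a change of the transcript. A second, weaker Txnrd1 probe set, with signals of 145 to 238, gave 0.082 (confidence interval -0.32 to 0.49). Its interval reached beyond 1.3-fold on the higher side, and the array sets gave -0.22 and 0.39.

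The 5 peroxiredoxins with a value, which reduce peroxides with electrons from thioredoxin or glutathione, also did not pass. Prdx2 of the cytosol had signals of 6573, 7597, 7703 and 7250.1 in control and 5989, 6652, 6733 and 6478 with dexamethasone, which overlapped, and differed by -0.17 (95% interval -0.34 to 0.0023, SE 0.079, limma adjusted p = 0.320) on the log2 scale. Prdx4 of the endoplasmic reticulum had 0.17 (confidence interval -0.034 to 0.37) and mitochondrial Prdx3 had -0.18 (confidence interval -0.46 to 0.11). Prdx5 and Prdx6 had 0.059 and -0.054. The signals of Prdx3, Prdx4, Prdx5 and Prdx6 over the 8 arrays were 1141 to 1689.5, 2556 to 3334, 992 to 1680.5 and 299 to 468.

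Superoxide dismutases convert superoxide to hydrogen peroxide, and catalase (Cat) degrades the peroxide. Sod3, the extracellular dismutase, had signals of 1450.3, 1788, 875 and 738 in control and 1276, 1064, 406 and 621 with dexamethasone. As for Gpx3, replicates 1 and 2 were higher than replicates 3 and 4 in both groups, but within each array set the dexamethasone arrays were the lower ones. The log2 fold change was -0.57 (95% interval -1.35 to 0.20, SE 0.36, limma adjusted p = 0.483) over the 8 arrays, and with array set as a block its interval was -0.90 to -0.25 and it passed (limma adjusted p = 0.0491). It was -0.47 and -0.68 within the array sets (limma adjusted p = 0.113 and 0.383). Sod1, the cytosolic enzyme, had signals of 7568, 7626, 10066 and 7821 in control and 7324, 6810.1, 7168 and 7437 with dexamethasone. These did not overlap (two-sided p = 0.0286 by an exact permutation test), but the value, -0.19 (95% interval -0.40 to 0.017, SE 0.097, limma adjusted p = 0.358), missed the threshold. Mitochondrial Sod2 had 0.35 (confidence interval -0.089 to 0.78) and Cat had 0.11 (confidence interval -0.27 to 0.49), with signals of 597 to 1241 and 771 to 1299.6.

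**Figure D3:**
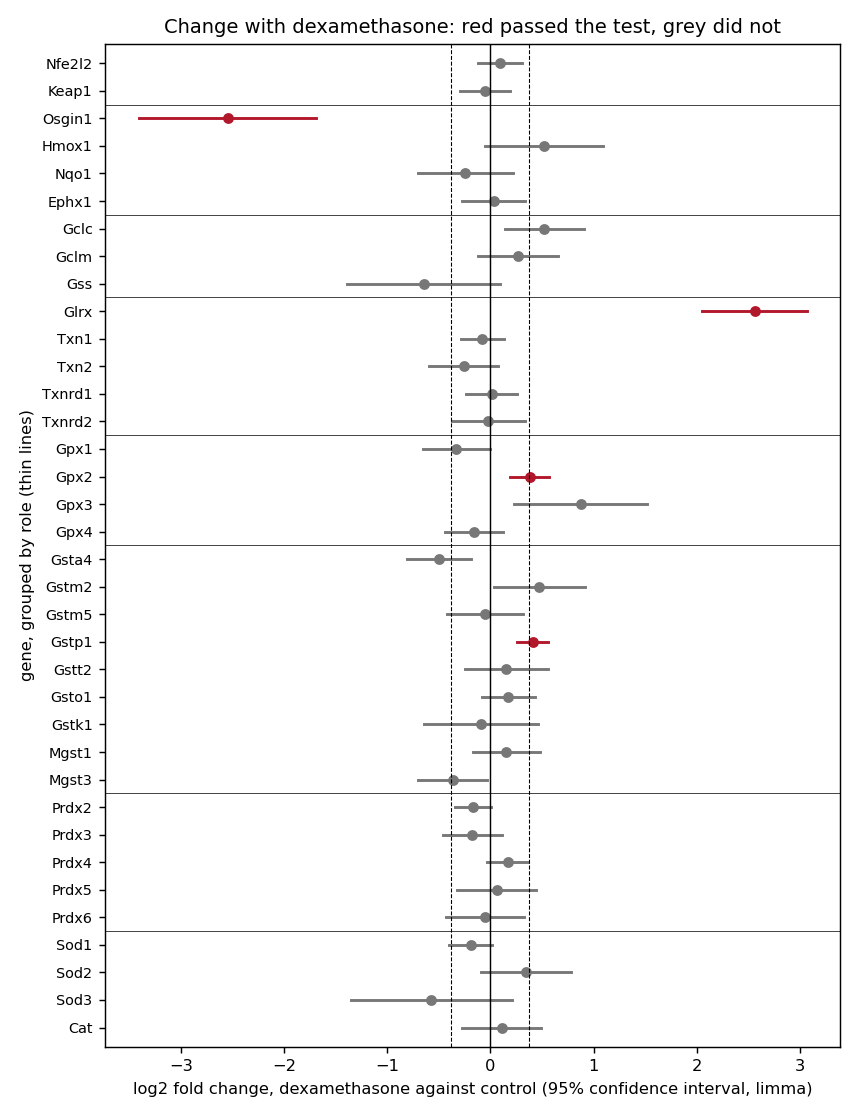
Log2 fold change, dexamethasone against control (x axis), with its 95% confidence interval from limma for the 36 tested genes in groups by role, red where the adjusted p was under 0.05 and dashed lines at 1.3-fold. Glrx at 2.56 and Osgin1 at -2.55 lay apart, and the other genes lay between -0.65 and 0.88.

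Of the 36 genes, 10 had an unadjusted p under 0.05 (limma), 6 higher and 4 lower, against 16.1% of all probe sets tested. The control and dexamethasone arrays did not overlap in 6 genes, of which Glrx, Gpx2 and Gstp1 were higher and Osgin1, Gsta4 and Sod1 lower, against 11.0% of all probe sets. In 8 genes the confidence interval lay within 1.3-fold in either direction, and for the other genes that did not pass a change of that size or more remained possible. Among these 8 was Txnrd2, whose signal was near that of the silent genes. With array set as a block, 7 of the 36 genes passed, the 4 named and Gpx3, Gsta4 and Sod3, where 5.57% of all probe sets passed. In replicates 1 and 2 alone 6 passed (Glrx, Gpx2, Gpx3, Gstp1, Gss and Osgin1), where 4.24% of all did, and in replicates 3 and 4 alone Glrx passed, where 0.203% did. The sign of the change was the same in both array sets in 28 of 36 genes, and the share over all probe sets was not counted for comparison.

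**Figure D4:**
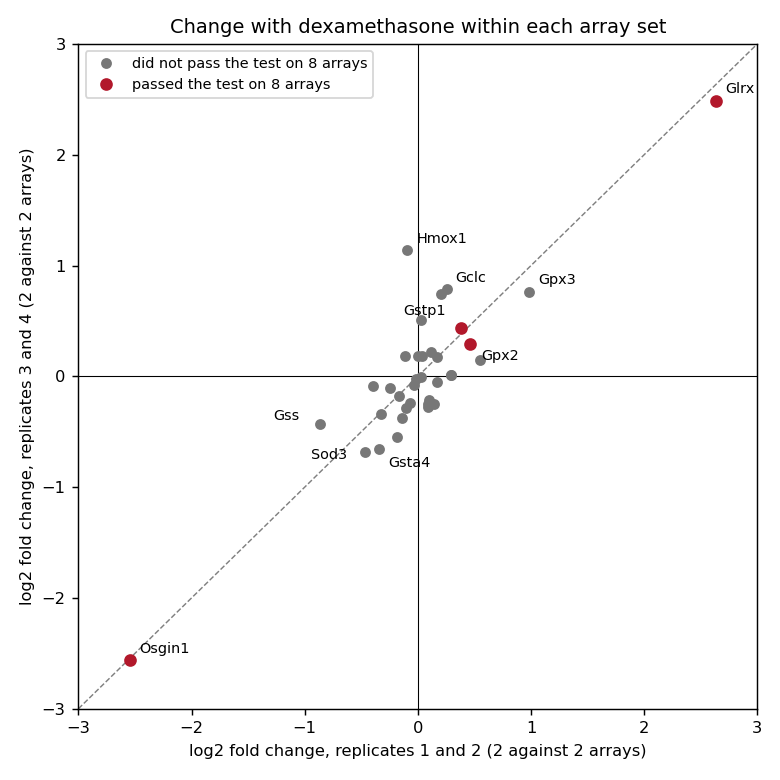
Log2 fold change within replicates 1 and 2 (x axis, 2 control against 2 dexamethasone arrays) and within replicates 3 and 4 (y axis, likewise) of each of the 36 tested genes, with the diagonal dashed. Glrx and Osgin1 lay near the diagonal far from 0, and Hmox1 lay at -0.092 on the x axis and 1.14 on the y axis.

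Other genes of the same pathways were taken from lists of cystine uptake and glutathione turnover, thiol exchange, NADPH supply, and NRF2 partners and targets. Of 101 genes listed, 81 had a probe set of their own, 70 were tested, 2 rose and 0 fell, beside 2.69% of all probe sets. Selenop, the selenoprotein that carries selenium to tissues, had signals of 379.7, 292, 345 and 428 in control and 729, 659.9, 779 and 741 with dexamethasone. The groups were far apart, and the log2 fold change was 1.02 (95% interval 0.72 to 1.32, SE 0.14, limma adjusted p = 0.00173), and the array sets gave 1.06 and 0.98 (limma adjusted p = 0.00738 and 0.131). With the beta-actin ratio as a covariate Selenop still passed (limma adjusted p = 0.0388). Sesn1, a sestrin of the stress response, had signals of 126, 189, 107 and 133 in control and 300.4, 277, 233 and 263 with dexamethasone. These did not overlap, and the value was 0.98 (95% interval 0.56 to 1.40, SE 0.19, limma adjusted p = 0.0183), and the array sets gave 0.90 and 1.05, neither past the threshold (limma adjusted p = 0.07 and 0.224). Sesn1 also did not pass without the filter on low signals (limma adjusted p = 0.0853), with the beta-actin ratio (limma adjusted p = 0.372) or without dexamethasone replicate 1, 2 or 4 (limma adjusted p = 0.0610, 0.0597 and 0.0514). All its control signals were below the 95th percentile of the silent genes, which was 283 to 342 on the control arrays. Of its dexamethasone signals only that of replicate 3 was above it, so that the size of the rise is not known.

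Of the 70 genes, 15 had an unadjusted p under 0.05 (limma), 5 higher and 10 lower, against 16.1% of all probe sets, and their median log2 fold change was -0.075. Srxn1, sulfiredoxin, a strong NRF2 target that repairs oxidized peroxiredoxins, had signals of 379.5 to 896 in control and 305 to 538 with dexamethasone and differed by -0.43 on the log2 scale (limma adjusted p = 0.469). Txnip, which binds and inhibits thioredoxin and is a known glucocorticoid target, had 812 to 1416 and 858 to 1422, with -0.0093 (limma adjusted p = 0.988). Slc7a11 had no probe set of its own in the annotation and is not analysed here. With array set as a block 7 of the 70 passed, 3 higher and 4 lower, against 5.57% of all probe sets.

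Sources of superoxide and peroxide were looked at beside the enzymes that remove them. Of 17 listed genes 6 were tested and 1 rose, where 1.88% of all probe sets did. Maob, monoamine oxidase B, which releases hydrogen peroxide at the outer mitochondrial membrane, had signals of 222, 166, 163 and 166 in control and 481, 471, 262 and 307 with dexamethasone, and was named after its value was seen. The groups did not overlap, and the log2 fold change was 1.05 (95% interval 0.58 to 1.51, SE 0.21, limma adjusted p = 0.0225), and the array sets gave 1.31 and 0.79 (limma adjusted p = 0.00493 and 0.269). It did not pass without the filter on low signals (limma adjusted p = 0.124), with the beta-actin ratio as a covariate (limma adjusted p = 0.322) or without control replicate 2 or 3 or dexamethasone replicate 1 or 2, with adjusted p values of 0.0589 to 0.0744 (limma). All Maob control signals were below the 95th percentile of the silent genes, 283 to 342 on the control arrays, so that the size of its rise is not known.

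The treatment and the tissue were checked on genes outside the list. Sgk1, Fkbp5 and Tsc22d3, which glucocorticoids induce, were higher on all 4 dexamethasone arrays, by 3.19, 2.14 and 2.16 on the log2 scale. Per1, another such gene, was higher by 1.62 (limma adjusted p = 0.00128) but below the 95th percentile of the silent genes on every array, and Zbtb16 had no probe set. Of 10 epithelial markers 9 had a probe set, all of them past the filter, with a summed signal of 47593 to 59830 in control and 46761 to 51830.0 with dexamethasone. Krt18, a keratin of simple epithelia, fell by 0.47 on the log2 scale (limma adjusted p = 0.0300). The summed signal of 8 endothelial markers was 1281 to 1582 in control and 3069 to 3698 with dexamethasone, where Kdr rose by 2.00 and Flt1 fell by 1.96 on the log2 scale, and Flt1 and 5 other markers stayed below 221 on every array. The sum of 3 melanocyte markers was 694 to 996 and 1457 to 2063, where Gpnmb rose by 1.34 on the log2 scale, Mitf and Mlana stayed below 221 on every array and 6 further markers had no probe set. The sum of 11 macrophage markers was 1046 to 1600.3 in control and 1330.2 to 5052 with dexamethasone, where Lyz2 on dexamethasone replicate 1 had a signal of 3415 and 8 of the 11 stayed below 221 on every array. Fibroblast, neuron, erythroid and cartilage markers overlapped between the groups. The part of these differences in the results above was not tested, and in such bulk samples fewer cells of a type cannot be told apart from less RNA per cell.

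On the signals as deposited, without rescaling, 34 probe sets were higher and 4 lower, against 195 and 84 after rescaling. The median over all probe sets then moved from -0.023 to 0.14, and that of the 36 genes from -0.0041 to 0.16. Glrx and Osgin1 passed on that scale. Gpx2 and Gstp1 did not (limma adjusted p = 0.9998 for both), with log2 fold changes of 0.54 and 0.57, against 0.38 and 0.41 after rescaling. Selenop, Sesn1 and Maob did not pass on it either, at 1.18, 1.14 and 1.21.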

How the data were processed

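Total RNA of 4 control and 4 dexamethasone-treated SCCD cultures was amplified and labelled by in vitro transcription in 2 cycles and measured on Affymetrix rat arrays. The authors deposited 1 signal intensity per probe set and array, made with the Affymetrix statistical algorithms on a linear scale, with a scaling target of 500 per the labels and a 1.3-fold limit for a change in their methods. The table held 15923 probe sets, of which 57 controls were left out, without detection calls or probe-level values, so that signal ratios of probe pairs were not used here.

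Each array was multiplied by a factor that brought its 2% trimmed mean to 500, and values below 16 were raised to 16 before the log2 step. The 10368 of 15866 probe sets that averaged 100 or more were fitted in R 4.3.3 with limma 3.58.1 (lmFit, eBayes with trend, two-sided), with Benjamini-Hochberg adjustment over all of them, and 95% confidence intervals. The exact permutation test used scipy 1.17.1. The scripts were tested on simulated data. The number of arrays limits the precision. The deposited annotation, updated by gene identifier, gave 1 gene to 12789 probe sets and several to 312, counted before the controls were left out. Of the first, 12754 were named through that identifier. After the controls were left out, 2771 probe sets had no gene. Genes below the filter were taken from a fit over all probe sets, for a description.

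The genes and the lists were chosen with earlier results of these data known, and no p-value is adjusted over a list. Values were given in full for genes with an unadjusted p under 0.05 and for Nfe2l2, Keap1, Osgin1, Glrx, Hmox1, Nqo1, Gclc and Gclm, together with Selenop, Sesn1, Slc7a11, Srxn1 and Txnip of the other lists as far as they had a probe set, and 1 further gene of that rule is not reported here. Gss, Sod1, Sod3, Prdx2 and Maob were added after their values were seen. Alternatives were signals as deposited, quantile normalization, median centring, no filter, a filter at 250, a robust fit, a fit without the trend, a floor of 100 or none, replicate number or array set as a block, each array set alone, the beta-actin ratio as a covariate, each array left out, a gene's probe sets averaged, and the median of the ratios at 1.3-fold without a test. The replicate numbers were not taken to pair the samples.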

Additional observations from a re-analysis of the deposited data

Results flagged for a closer look

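In 40 genes, 80 groups of 4 arrays were examined for 1 array apart from the other 3, measured as its gap to the nearest array over the whole range of the group on the log2 scale. A share above Dixon's 95% critical value for 4 arrays was found in 7 groups. In 2 of these the floor on low signals set the share, and 5 remained among the 76 groups with no array at the floor, where chance gives about 1 of 20. Keap1 was flagged in both groups. Control replicate 2 was the lowest there, at 404 against 450.2 to 457 (share 0.877), and dexamethasone replicate 3 was the highest, at 437 against 419 to 421 (share 0.873), within a narrow range of signals. Txn2 was highest on dexamethasone replicate 1, at 1745 against 1287 to 1319.9 (share 0.917). Mgst1 was lowest on control replicate 4, at 2940.0 against 3886 to 3994 (share 0.911). Sod1 was highest on control replicate 3, at 10066 against 7568 to 7821 (share 0.885), and this array was also the one with the highest beta-actin 3′ to 5′ ratio, 13.7. Gstm1 and Gstt1 were below the filter on low signals and were at the floor of 16 on all control arrays except replicate 3, at 21.5 and 22.0 (share 1.0 for both), and without the floor the shares were 0.569 and 0.329, below the critical value. No technical or biological explanation of these values was tested.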

How the results depend on the processing

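Glrx passed under every alternative run. Osgin1 was not tested with the filter at 250, kept its direction in the other alternatives and no longer passed without the filter, with a floor of 100, in replicates 3 and 4 alone or with the beta-actin ratio. Of the counts over all probe sets (279), the 36 genes (4) and the 70 other pathway genes (2), the signals as deposited gave 38, 2 and 0, no filter 102, 2 and 1, and the array set as a block 578, 7 and 7. Replicates 1 and 2 alone gave 440 probe sets, replicates 3 and 4 alone 21, 1 and 0, and the beta-actin ratio as a covariate 65, 1 and 1. The median ratio at 1.3-fold, without a test, gave 1494 (762 higher and 732 lower), 10 and 12. Without the variance trend 2 of the 36 genes passed, Glrx and Osgin1, beside 214 of the 10368 probe sets. Without the filter the 2 that passed were Glrx and Gstp1. With quantile normalization 4 of the other pathway genes passed, beside 326 of the probe sets. Leaving out 1 array gave 180 to 275 probe sets, 3 to 4 genes and 1 to 3 other pathway genes, and a median of the 36 genes of -0.030 to 0.051, while on the signals as deposited that median was 0.16 with a shift of all probe sets to 0.14. The sign turned for Keap1 (0.11) and Txnip (0.15) on the signals as deposited, for Hmox1 in replicates 1 and 2 alone (-0.092), for Txnip in replicates 3 and 4 alone (0.17) and by the median ratio (0.042), and with the beta-actin ratio for Gclm (-0.089), Gstm2 (-0.011) and Srxn1 (0.017). Txnip lay between -0.15 and 0.12 when 1 array was left out. None of these turned values passed the test, and the cause was not tested.

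Replicate numbers were not used for pairing, since the deviations of same-numbered arrays from their group means correlated at 0.35, 0.25, 0.035 and 0.41 and control replicates 3 and 4 each correlated best with another number. With the replicate number as a block, 484 probe sets passed (308 higher and 176 lower), 6 of the 36 genes, the 4 of the unblocked fit with Gpx3 and Gsta4, and 6 of the other pathway genes. At this number of arrays and these signals, low genes such as Osgin1, Gclc, Gclm and Gsr had little room above the silent genes.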
